A study of Mus musculus with 20 samples.

Results

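Interferon-stimulated genes are genes that cells switch on when interferon signals that a virus or other invader is near. A list of 41 of them was followed in the livers of 20 mice of the inbred strains C57BL/6N (B6) and C3H/HeN (C3), with 5 mice of each sex per strain. The list was taken by gene symbol, and each of its 41 symbols matched a row among the 25444 gene loci of the deposited tables. All mice were 20 weeks old, came from the same supplier (Taconic) and were housed singly in a pathogen-free facility, with females and males in separate rooms, so that sex and room cannot be told apart. The labels name no transgene, targeted allele, infection or treatment in any group, so the 4 groups, B6 females, B6 males, C3 females and C3 males, differ by strain and sex alone as far as the labels go. RNA came from the left lateral lobe, which holds hepatocytes together with Kupffer cells (the resident macrophages), endothelial cells, stellate cells and lymphocytes. In such bulk samples, fewer cells of a type and less RNA per cell cannot be told apart.

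Type I interferons bind the receptor IFNAR, whose kinases JAK1 and TYK2 phosphorylate transcription factors such as STAT2. With IRF9, STAT2 is part of the complex ISGF3, which binds the interferon-stimulated response element (ISRE) in the promoters of its target genes, while interferon gamma acts mainly through a different element, GAS. Without infection a low, tonic level of the same genes is kept up, and in liver both hepatocytes and Kupffer cells can respond to interferon. The targets include sensors of foreign RNA and DNA, enzymes that degrade or block viral RNA, proteins that trap virus particles, and the machinery that presents viral peptides.

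Promoters of the members were read from the mm9 (NCBIM37) genome in the 250 bases before the start of each locus, as the deposited coordinates give it. They were read because interferons act through the ISRE and GAS. The core of the ISRE was searched as GAAA, any 2 bases and GAAA, and the core of GAS as TTC, any 3 bases and GAA, on both strands and with overlapping matches allowed. An ISRE core was found in 14 of the 41 members (34.1%), beside 2.88% of the 13685 genes tested that have such a window and 3.16% of all 25283 windows. A GAS core was found in 8 members (19.5%), beside 6.09% and 6.74%. These counts are a description of letters in a fixed window and were given no test. The stretches below hold the matches nearest to the start in members that the later results turn on, printed 5′ to 3′ on the strand of the gene, with the ISRE cores in capitals.
Oas1a (chr5:121357535-121357559, minus strand): ctcggGAAATGGAAACTGAAAatct
Oas1g (chr5:121337623-121337645, minus strand): ctcggGAAATGGAAACTGAAAat
Ifit1 (chr19:34715270-34715308, plus strand): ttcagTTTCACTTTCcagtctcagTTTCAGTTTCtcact
Ifit3 (chr19:34657892-34657911, plus strand): gtctgTTTCAGTTTCtactt
Rsad2 (chr12:27141423-27141442, minus strand): ccaacTTTCATTTTCagaaa
Bst2 (chr8:74061481-74061506, minus strand): tccagGAAAATGAAACTGAAAggctg
Isg15 (chr4:155574979-155575010, minus strand): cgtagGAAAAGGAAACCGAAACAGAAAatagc
Usp18 (chr6:121195860-121195879, plus strand): tagggGAAAACGAAAgcttg
Parp14 (chr16:35871508-35871527, minus strand): gaaatGAAAGCGAAAgaagt
Rtp4 (chr16:23609952-23609994, plus strand): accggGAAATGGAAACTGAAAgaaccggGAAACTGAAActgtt
The core is read as GAAA on the strand of the gene in Oas1a, Oas1g, Bst2, Isg15, Usp18, Parp14 and Rtp4, and as its complement TTTC in Ifit1, Ifit3 and Rsad2. In Oas1a and Oas1g the same run of letters lies directly at the start, with the last base of the match at position -5 and -3 before it, and in Rtp4 the nearest match ends at -16. Rtp4 and Zbp1 held the most matches, 4 each. The whole window of Rtp4, which codes for a chaperone of membrane receptors with antiviral activity, holds all 4, of which 2 overlap.
Rtp4 (chr16:23609755-23610004, plus strand): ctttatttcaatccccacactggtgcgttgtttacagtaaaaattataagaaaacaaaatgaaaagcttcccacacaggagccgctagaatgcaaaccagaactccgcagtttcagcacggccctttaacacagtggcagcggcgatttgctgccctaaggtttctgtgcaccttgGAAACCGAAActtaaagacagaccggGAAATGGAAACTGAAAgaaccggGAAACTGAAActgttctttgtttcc
The other members with an ISRE core were Zbp1, Oas2, Oas3 and Ifi27. No match was found for Stat2, Mx2, Samd9l, Ifi44, Xaf1, Parp9, Dtx3l or Oasl2, which says only that these letters are not in this window.

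The libraries were strand-specific total RNA with ribosomal RNA removed, and held between 27370921 and 46835745 counts. Levels of a gene are given in counts per 1000000 counts (CPM) on library sizes normalized by the trimmed mean of M values (TMM), and a library could show a gene from about 3 counts, which is 0.0641 to 0.110 CPM. All 41 members passed the filter on low counts, among 13704 genes. The labels of sex held in all 20 libraries: Xist was over 100 CPM in 10 of 10 females and under 1 CPM in 10 of 10 males. Libraries were sequenced in 3 pools, with 1 or 2 mice of each group in each. Between pools 3 and 1, 10 of the 41 members (24.4%) differed by more than 0.5 on the log2 scale, beside 25.6% of the genes tested, and the largest shifts were in Bst2 (1.26 higher in pool 3), Ifi27 (1.16), Psmb9 (1.11) and Isg15 (1.07) and, downward, in Rtp4 (-0.92). The model therefore held pool as a term, and differences within each pool are given beside each call. Values of single livers are listed in the order of replicates 1 to 5, which lay in pools 3, 3, 2, 1 and 1 for B6 females, 2, 1, 3, 3 and 1 for B6 males, 2, 3, 3, 1 and 1 for C3 females, and 2, 1, 1, 3 and 2 for C3 males.

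Levels per gene length were read in TPM, which scales counts by gene length and library, as the authors deposited them. The median of the members' medians over the 20 livers was 13.9 TPM, beside 8.86 TPM over the genes tested. Bst2, which codes for tetherin, a membrane protein that holds budding virus particles to the cell, stood first with a median of 115.3 TPM and a range of 42.9 to 270.4 TPM. It was followed by Ifi27 at 69.8 TPM, a mitochondrial protein, and the secreted glycoprotein gene Lgals3bp at 55.9 TPM. Stat2, Parp9, Dtx3l and Psmb8 came next, with medians between 35.9 and 37.1 TPM, and their ranges over the livers overlapped. At the low end were oligoadenylate synthetases and an Mx gene, with medians of 1.28 TPM for Oas2, 1.20 TPM for Mx1, 0.841 TPM for Oas1g and 0.724 TPM for Oas3.

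**Figure D1:**
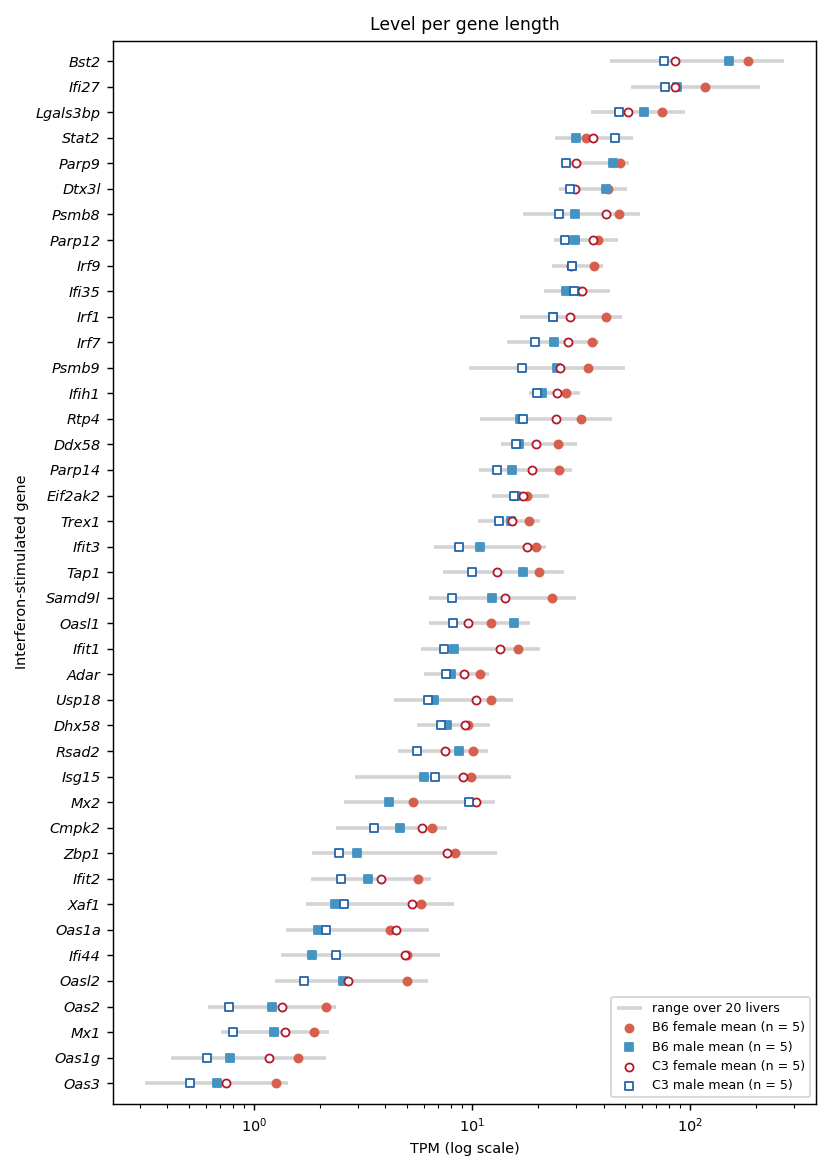
Level of each of the 41 members in TPM (log scale), ordered by the median over 20 livers; symbols are group means of 5 mice (filled, B6; open, C3; circles, females; squares, males) and grey bars span the 20 livers. Levels run from 0.724 TPM (median, Oas3) to 115.3 TPM (Bst2), and Mx2 has C3 means of 10.4 and 9.63 TPM above B6 means of 5.33 and 4.14 TPM.

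Female and male livers were compared within each strain to ask which members were sex-biased. In B6, 10 of the 41 members were called higher in females, that is, at an adjusted p under 0.001 and a log2 fold change over 0.5, beside 3.23% of the 13704 genes tested (6.34% in either direction). They were Irf1, Oas1a, Oas1g, Oasl2, Ifit1, Samd9l, Ifi44, Rtp4, Parp14 and Xaf1, from 1.52-fold higher (Parp14) to 2.501-fold higher (Ifi44). In C3, 3 members were called higher in females, Oas1a, Ifit3 and Samd9l, beside 4.11% of genes (6.9% in either direction). Oas1a, a synthetase that activates RNA decay, and Samd9l, a restrictor of poxviruses and of translation, were called in both strains. Without the pool term 1 member was called in B6, Ifi44, and 1 in C3, Ifit3, so that Oas1a and Samd9l were then called in neither strain. By edgeR, DESeq2 or limma 0 members were called lower in females in either strain (beside 3.12% of genes in B6 and 2.79% in C3 by edgeR, 3.93% and 4.31% by DESeq2, and 1.9% and 1.79% by limma). At an unadjusted p under 0.05 each of these tools found 1 member lower in each strain, which in edgeR was Oasl1 in B6 and Stat2 in C3. The share of all genes at that unadjusted p is not given here.

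Over all members, the median log2 difference between females and males was 0.46 in B6 and 0.33 in C3, beside 0.0018 and 0.015 over the genes tested. The difference was above 0 for 38 members in B6 (92.7%, beside 50.2% of genes) and for 34 in C3 (82.9%, beside 51.9%), and for 32 in both strains. At an adjusted p under 0.05 in edgeR, without a fold threshold, 24 members were higher and 1 lower in B6 females (58.5% and 2.44%, beside 16.2% and 18.4% of genes). By the same measure, 22 were higher and 1 lower in C3 females (53.7% and 2.44%, beside 20.1% and 19.9%). The 5 female livers all lay above the 5 male livers for 14 members in B6, beside 5.79% of genes, and for 3 in C3, Oas1a, Mx1 and Cmpk2, beside 7.38%. The reverse was found for 0 members in either strain, beside 5.1% of genes in B6 and 5.68% in C3. The 14 members with an ISRE core had a median log2 difference of 0.76 in B6 and 0.49 in C3, and the 27 without had 0.25 and 0.21. For C3 against B6 the medians with and without a core were -0.28 and -0.25 in females and -0.16 and -0.10 in males. These values were given no test, and genes outside the list that hold the core were not examined for such differences. The markers of Kupffer cells were above 0 for 11 of 11 genes in both strains, with a median log2 difference of 0.49 in B6 and 0.35 in C3, and 1 was called higher in females of each strain, Vsig4. Their summed level was 597 to 730.2 CPM for B6 females, 379.9 to 556 CPM for B6 males, 386 to 561 CPM for C3 females and 275 to 411 CPM for C3 males, with no marker at 0, and their part in the differences of the members was not tested. The markers of endothelial and stellate cells were above 0 for 9 of 10 in both strains, with medians of 0.32 and 0.23, and summed to 799 to 974 CPM for B6 females, 663 to 757 CPM for B6 males, 693 to 806 CPM for C3 females and 602 to 692 CPM for C3 males. Their part was not tested either.

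**Figure D2:**
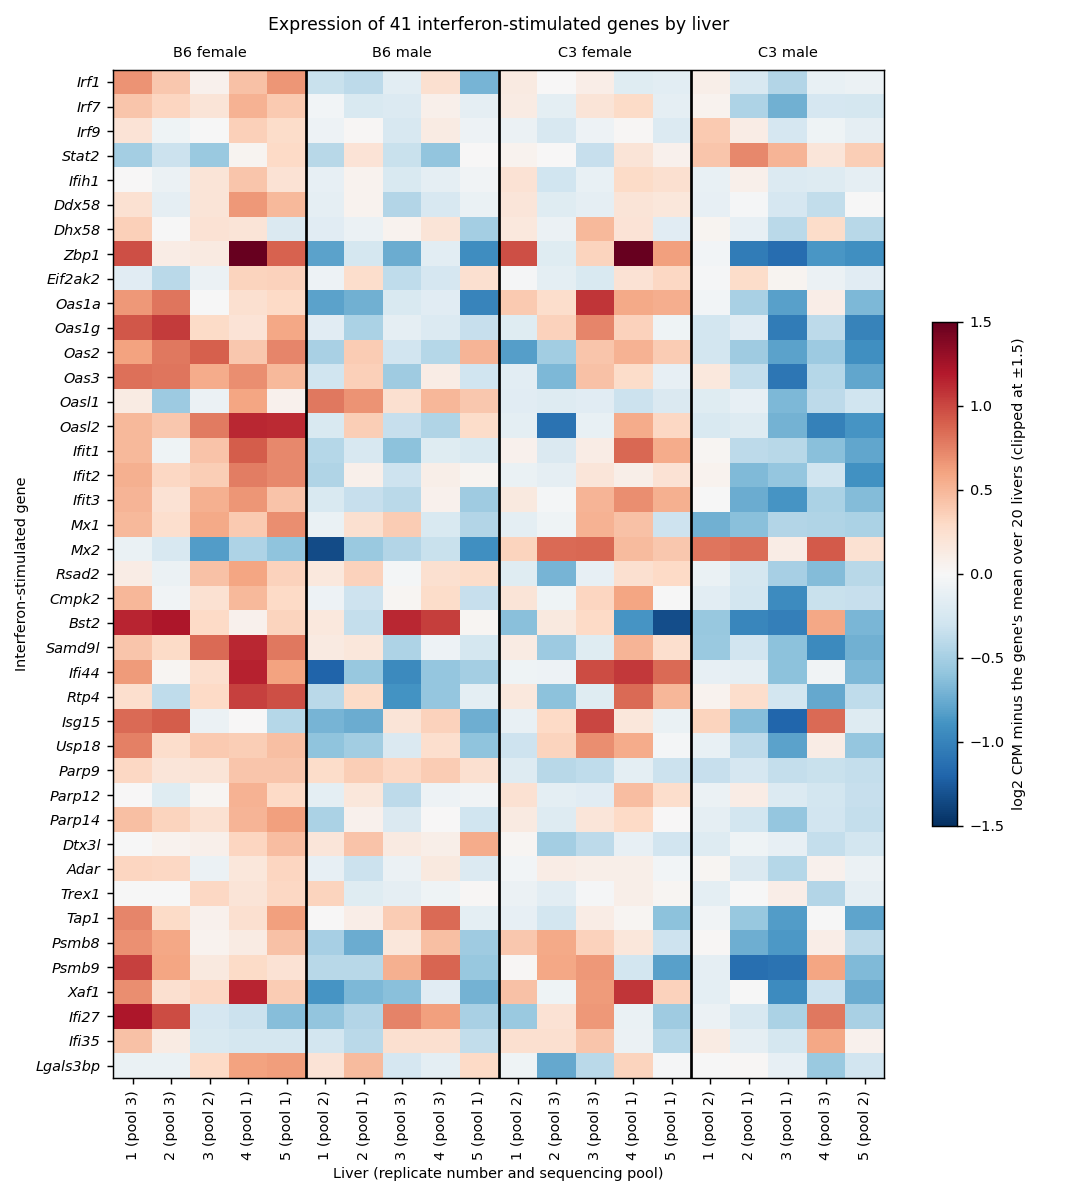
Level of each member in each liver, as log2 CPM minus the gene's mean over 20 livers (colour, clipped at ±1.5), with livers by group, replicate and sequencing pool. B6 female livers are above the mean in most rows, Mx2 is highest in C3 livers of both sexes and Stat2 in C3 males, and Bst2, Isg15, Psmb9 and Ifi27 are raised in the pool 3 livers of each group.

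**Figure D3:**
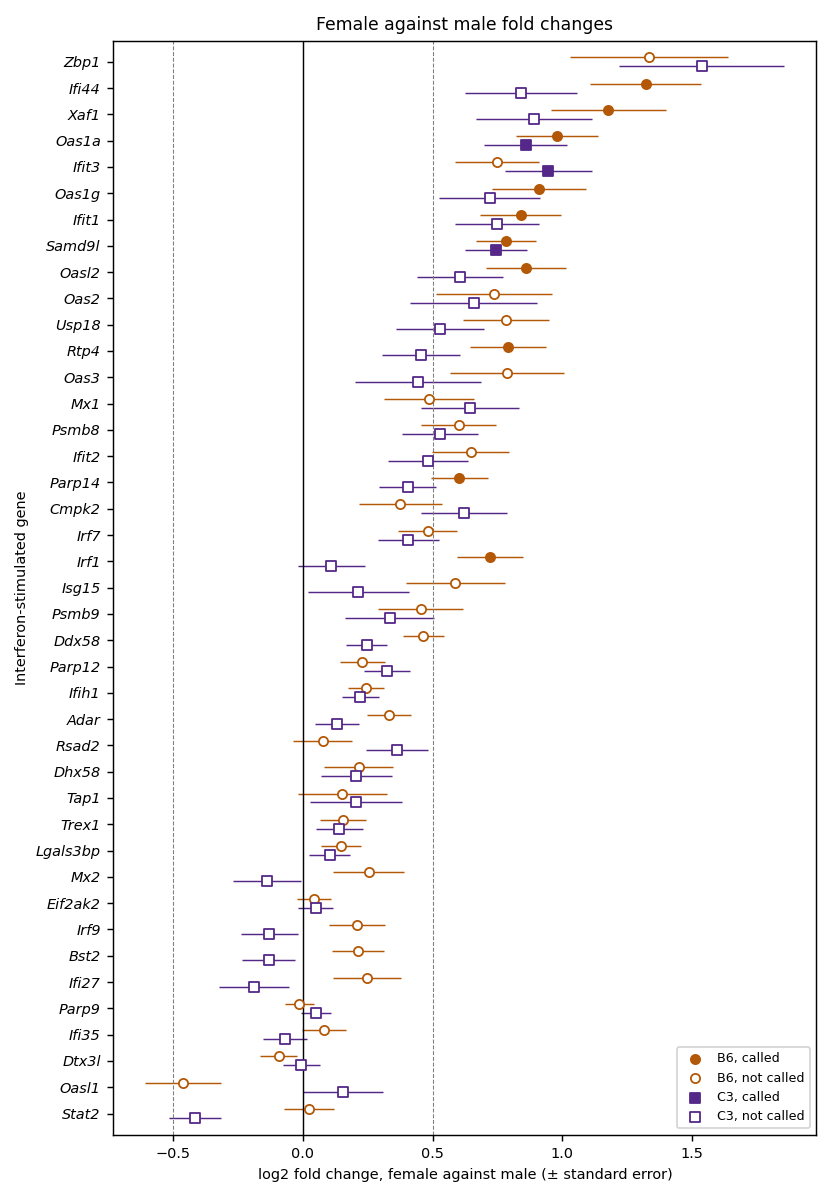
Log2 fold change of females against males with its standard error for each member in B6 (circles) and C3 (squares); filled symbols are calls and dashed lines mark 0.5 in either direction. The 10 B6 calls and 3 C3 calls all lie on the female side, and Oasl1 in B6 and Stat2 in C3 are the values farthest on the male side.

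Among the transcription factors, Irf1 (chr11:53583516-53591876), which drives interferon and antigen presentation genes, was called in B6 females. Its levels were 71.9, 59.7, 47.2, 61.0 and 71.1 CPM in B6 females and 35.7, 34.2, 40.4, 53.1 and 27.8 CPM in B6 males. Male 4 was the exception that overlapped the females, of which female 3 was lowest. The female mean of 62.2 ± 10.1 CPM (SD, n = 5) was 1.65-fold higher (log2 fold change 0.72 ± 0.13 SE, edgeR adjusted p = 0.00028) than the male mean of 38.2 ± 9.44 CPM, with log2 differences of 1.09, 0.40 and 0.50 within pools 1, 2 and 3, the order kept for all such values. In C3 the values were 49.3, 45.1, 48.1, 39.8 and 40.4 CPM in females and 47.7, 38.0, 33.1, 41.6 and 42.5 CPM in males, which overlapped, and the log2 fold change was 0.11 ± 0.13. The B6 call was lost without B6 female 1, or B6 male 1, 3 or 5, with an adjusted p of at most 0.0013 in edgeR.

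Irf7 (chr7:148449082-148452323), the amplifier of the type I interferon response, lay at 30.7, 28.8, 26.4, 33.1 and 30.3 CPM in B6 females and 22.3, 19.6, 20.01, 24.4 and 20.9 CPM in B6 males. These groups did not overlap, and the log2 fold change of 0.48 missed both thresholds (edgeR adjusted p = 0.0033). In C3, Irf7 was at 25.0, 20.9, 26.4, 28.2 and 20.9 CPM in females and 23.8, 16.7, 14.0, 19.4 and 19.2 CPM in males, with a log2 fold change of 0.41 ± 0.12 (edgeR adjusted p = 0.011). Male 1 lay within the female range there. Irf9 (chr14:56222822-56228867), the DNA-binding part of ISGF3, was at 45.1, 37.4, 39.0, 50.0 and 47.4 CPM for B6 females, 37.1, 39.6, 33.1, 42.5 and 36.9 CPM for B6 males, 36.7, 33.0, 37.0, 39.6 and 33.8 CPM for C3 females and 51.1, 42.2, 32.7, 37.4 and 35.7 CPM for C3 males. All 4 groups of Irf9 overlapped, and its log2 differences between sexes were 0.21 ± 0.11 in B6 and -0.13 ± 0.11 in C3, neither of them called.

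Sensors of foreign nucleic acid were not called by edgeR in either strain, whereas DESeq2 called Zbp1 in both, and limma called Ddx58 in B6 and Zbp1 in C3. Zbp1, a sensor of Z-form nucleic acid that triggers cell death, had the largest fitted log2 difference between the sexes of any member, 1.33 ± 0.30 in B6 and 1.54 ± 0.32 in C3 (edgeR adjusted p = 0.0026 and 0.0012), with means of 8.13 ± 3.39 CPM for B6 females, 3.14 ± 0.768 for B6 males, 7.91 ± 3.71 for C3 females and 2.73 ± 0.975 for C3 males. Its female livers were widely spread, and the 5 B6 females nevertheless lay above the 5 B6 males. Ddx58, which codes for the RNA sensor RIG-I, passed the p threshold in B6 (edgeR adjusted p = 0.00022) with a log2 fold change of 0.46 ± 0.079, just short of 0.5. Log2 differences in B6 and C3 were 0.24 ± 0.069 and 0.22 ± 0.07 for Ifih1, which codes for the related sensor MDA5, 0.21 ± 0.13 and 0.21 ± 0.14 for its regulator Dhx58, and 0.043 ± 0.066 and 0.049 ± 0.067 for Eif2ak2, the RNA-dependent kinase that stops translation.

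The oligoadenylate synthetase family, whose active enzymes make the messenger that activates RNase L, held 6 members. It gave 3 calls in B6 (50.0%, beside 3.23% of genes called higher) and 1 in C3 (16.7%, beside 4.11%). Oas1a (chr5:121346266-121357534) was at 4.15, 4.60, 2.63, 3.12 and 3.24 CPM in B6 females and 1.51, 1.59, 2.25, 2.34 and 1.32 CPM in B6 males. C3 livers were at 3.47, 3.17, 5.55, 3.90 and 3.84 CPM in females and 2.55, 1.87, 1.498, 2.83 and 1.64 CPM in males. Every female liver lay above every male liver of its strain. Oas1a was 1.97-fold higher (log2 fold change 0.98 ± 0.16 SE, edgeR adjusted p = 0.00014) in B6 females and 1.81-fold higher (log2 fold change 0.86 ± 0.16 SE, edgeR adjusted p = 0.00052) in C3 females, with log2 differences within pools 1, 2 and 3 of 1.10, 0.78 and 0.91 in B6 and 1.18, 0.75 and 0.56 in C3. The C3 call was lost without C3 female 1, 3, 4 or 5, or C3 male 2, 3, 4 or 5, where the adjusted p in edgeR reached at most 0.0025, whereas the B6 call held in all 20 fits that left out a liver. Both calls were lost without the pool term.

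Oas1g (chr5:121326151-121337622), its neighbour in the same cluster on chromosome 5, was at 1.81, 1.95, 1.15, 1.084 and 1.42 CPM in B6 females and 0.834, 0.673, 0.857, 0.814 and 0.736 CPM in B6 males. In C3 females it was at 0.826, 1.20, 1.57, 1.20 and 0.901 CPM, and in C3 males at 0.774, 0.835, 0.450, 0.713 and 0.464 CPM. The B6 groups did not overlap, whereas C3 female 1 lay under the highest C3 male. Oas1g was 1.88-fold higher (log2 fold change 0.91 ± 0.18 SE, edgeR adjusted p = 0.00083) in B6 females, with 0.77, 0.44 and 1.12 within pools, and its C3 difference of 0.72 ± 0.20 was not called. The B6 call was lost without B6 female 1, 2, 3 or 5, B6 male 2, 3, 4 or 5, C3 female 2 or 5, or C3 male 4 (adjusted p of at most 0.0038 in edgeR). Of the 125-base windows in the annotated exons of Oas1a, 30.1% also occur in Oas1g, and 28.5% of those of Oas1g occur in Oas1a, and since read pairs that fit several places were not counted, the levels of both genes are less certain.

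Oasl2 (chr5:115346943-115362254), an oligoadenylate synthetase-like protein with ubiquitin-like domains, was at 5.66, 5.33, 6.91, 8.84 and 8.77 CPM in B6 females and 3.43, 5.20, 3.16, 2.94 and 4.88 CPM in B6 males. The B6 females all lay above the B6 males, by a narrow margin at female 2 and male 2. In C3, levels were 3.64, 1.86, 3.74, 5.92 and 5.01 CPM in females and 3.44, 3.51, 2.46, 1.996 and 2.18 CPM in males, and female 2 had the lowest value of the 20 livers. Oasl2 was 1.82-fold higher (log2 fold change 0.86 ± 0.15 SE, edgeR adjusted p = 0.00034) in B6 females, with 0.80, 1.00 and 0.84 within pools, and the call was lost without B6 female 1 or 3, or B6 male 1, 2, 4 or 5 (adjusted p of at most 0.0017 in edgeR). Oas2 and Oas3 had log2 differences of 0.74 and 0.79 in B6 and of 0.66 and 0.44 in C3, and Oasl1 had -0.46 and 0.15, without a call. For Oas3 the B6 groups did not overlap.

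The Ifit proteins, which bind viral RNA that lacks the cap structure of the host, had positive differences for all 3 members in both strains. Ifit1 (chr19:34715379-34724499) was at 18.8, 12.8, 18.0, 25.2 and 22.2 CPM in B6 females and 9.97, 11.3, 8.74, 11.8 and 11.4 CPM in B6 males. C3 females had 14.1, 11.6, 14.53, 24.4 and 19.8 CPM and C3 males 13.7, 10.2, 10.04, 8.67 and 7.82 CPM. The B6 groups were apart and the C3 groups overlapped through female 2 and male 1. Ifit1 was 1.79-fold higher (log2 fold change 0.84 ± 0.16 SE, edgeR adjusted p = 0.00049) in B6 females, with 1.05, 0.85 and 0.61 within pools, and 0.75 ± 0.16 on the log2 scale in C3 (edgeR adjusted p = 0.0017). Its B6 call was lost without B6 female 1, 3, 4 or 5, or B6 male 1, 2, 3 or 5 (adjusted p of at most 0.0022 in edgeR).

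Ifit3 (chr19:34658019-34663472) was at 18.2, 14.9, 18.4, 20.3 and 17.2 CPM in B6 females and 10.9, 10.04, 9.68, 13.4 and 8.84 CPM in B6 males, with no overlap. Among C3 livers it was at 14.2, 12.6, 18.3, 20.8 and 18.5 CPM in females and 12.8, 7.60, 6.92, 9.19 and 8.17 CPM in males, where male 1 just passed female 2. Ifit3 was 1.93-fold higher (log2 fold change 0.95 ± 0.17 SE, edgeR adjusted p = 0.00033) in C3 females, with 1.43, 0.47 and 0.72 within pools, and it was lost without C3 female 3, 4 or 5, or C3 male 2, 3 or 4 (adjusted p of at most 0.0018 in edgeR). In B6 the difference was 0.75 ± 0.16 (edgeR adjusted p = 0.0017), which missed the threshold; the strains were not shown to differ. Ifit3 shares 23.4% of its 125-base windows with I830012O16Rik, which makes its level less certain. Ifit2 had a log2 difference of 0.65 ± 0.15 in B6, without overlap, and of 0.48 ± 0.16 in C3.

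The 8 antiviral effectors of other families gave 3 calls in B6 (37.5%, beside 3.23% of genes called higher) and 1 in C3 (12.5%, beside 4.11%). Samd9l (chr6:3322257-3349571) was at 45.4, 41.3, 60.9, 74.5 and 58.8 CPM in B6 females and 37.1, 38.0, 24.7, 32.1 and 28.1 CPM in B6 males. In C3 it was at 37.0, 23.2, 29.9, 48.2 and 40.4 CPM in females and 23.1, 27.7, 22.2, 17.4 and 20.6 CPM in males. B6 females were all above B6 males, and of the C3 females only female 2 lay within the male range. Samd9l was 1.72-fold higher (log2 fold change 0.78 ± 0.12 SE, edgeR adjusted p = 5.2e-05) in B6 females and 1.68-fold higher (log2 fold change 0.75 ± 0.12 SE, edgeR adjusted p = 0.00012) in C3 females, with log2 differences within pools of 1.01, 0.71 and 0.62 in B6 and 0.83, 0.76 and 0.60 in C3, and both calls held in all 20 fits that left out a liver. Both were lost without the pool term.

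Ifi44 (chr3:151393887-151412923), which codes for a cytoplasmic protein long known as an interferon target, was at 6.80, 4.48, 5.22, 9.73 and 6.67 CPM in B6 females and 1.89, 2.94, 2.25, 2.91 and 3.07 CPM in B6 males. Its C3 values were 4.20, 4.14, 8.60, 9.16 and 7.90 CPM in females and 4.02, 3.97, 2.85, 4.21 and 2.75 CPM in males. No B6 male reached the lowest B6 female, whereas C3 females 1 and 2 lay just under the highest C3 male. Ifi44 had the largest difference called between the sexes, 2.501-fold higher (log2 fold change 1.32 ± 0.21 SE, edgeR adjusted p = 0.00013) in B6 females, with 1.41, 1.44 and 1.09 within pools, and it held in all 20 fits that left out a liver. In C3 the difference was 0.84 ± 0.22 (edgeR adjusted p = 0.0053).

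Rtp4 (chr16:23610005-23614308) was at 18.6, 12.0, 19.1, 31.9 and 30.4 CPM in B6 females and 11.8, 19.0, 8.402, 10.4 and 14.1 CPM in B6 males. It was at 17.5, 10.2, 13.8, 28.1 and 21.98 CPM in C3 females and 16.2, 18.7, 12.9, 9.15 and 12.0 CPM in C3 males. The sexes overlapped in both strains, and the livers of pool 3 were the lowest of each group. With pool in the model, Rtp4 was 1.73-fold higher (log2 fold change 0.79 ± 0.15 SE, edgeR adjusted p = 0.00044) in B6 females, with 0.93, 0.69 and 0.67 within pools. The call was lost without B6 female 1, 4 or 5, or B6 male 1, 3 or 5 (adjusted p of at most 0.002 in edgeR), and in C3 the difference was 0.46 ± 0.15. Of the remaining effectors, Mx1 and the mitochondrial nucleotide kinase gene Cmpk2 had log2 differences of 0.48 and 0.38 in B6 and of 0.65 and 0.62 in C3, where their sexes did not overlap, without a call. Those of Mx2, Rsad2 and Bst2 were 0.25, 0.076 and 0.21 in B6 and -0.14, 0.36 and -0.13 in C3.

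Isg15 codes for a ubiquitin-like protein that is attached to other proteins, and Usp18 for the protease that removes it and also restrains IFNAR signalling. Isg15 (chr4:155573533-155574927) was at 4.70, 4.93, 2.46, 2.63 and 1.93 CPM in B6 females and 1.60, 1.56, 2.99, 3.33 and 1.56 CPM in B6 males. The C3 values were 2.41, 3.21, 5.24, 2.94 and 2.43 CPM in females and 3.29, 1.67, 1.14, 4.70 and 2.28 CPM in males. Within each group the livers of pool 3 were highest, and the sexes overlapped in both strains. The log2 difference was 0.59 ± 0.19 in B6 (edgeR adjusted p = 0.024) and 0.21 ± 0.20 in C3 (edgeR adjusted p = 0.4), without a call. Usp18 had 9.74 ± 1.31 CPM in B6 females and 5.75 ± 1.61 CPM in B6 males, without overlap, and a log2 difference of 0.78 ± 0.16 that just missed the threshold (edgeR adjusted p = 0.0013). In C3 its log2 difference was 0.53 ± 0.17.

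Among the ADP-ribosyl transferases, Parp14 (chr16:35832964-35871468), a large macrodomain protein of the interferon and interleukin responses, was at 82.8, 76.1, 71.1, 86.1 and 92.3 CPM in B6 females and 43.6, 63.3, 52.0, 60.8 and 49.2 CPM in B6 males. All B6 females lay above all B6 males. C3 livers were at 66.3, 52.7, 68.9, 74.4 and 60.6 CPM in females and 55.1, 49.8, 40.4, 49.5 and 47.3 CPM in males, where male 1 lay above female 2. Parp14 was 1.52-fold higher (log2 fold change 0.60 ± 0.11 SE, edgeR adjusted p = 0.00037) in B6 females, with 0.67, 0.71 and 0.50 within pools, and 0.40 ± 0.11 on the log2 scale in C3 (edgeR adjusted p = 0.0084). The B6 call was lost without B6 female 1, 4 or 5, or B6 male 1, 3 or 5 (adjusted p of at most 0.0017 in edgeR). Parp12 had a log2 difference of 0.23 in B6 and 0.32 in C3. Parp9 and its partner Dtx3l, a ubiquitin ligase, had log2 differences close to 0 in both strains, at -0.014 and -0.094 in B6 and 0.049 and -0.0069 in C3.

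Xaf1 (chr11:72115131-72127235), a proapoptotic interferon target, was at 7.33, 5.33, 5.596, 10 and 5.88 CPM in B6 females and 2.44, 2.81, 2.92, 3.998 and 2.76 CPM in B6 males. C3 livers had 6.12, 4.32, 7.03, 9.49 and 5.73 CPM in females and 4.06, 4.49, 2.34, 3.63 and 2.68 CPM in males. The B6 groups did not overlap, and in C3 female 2 lay just under male 2. Xaf1 was 2.26-fold higher (log2 fold change 1.18 ± 0.22 SE, edgeR adjusted p = 0.00053) in B6 females, with 1.44, 1.18 and 0.86 within pools, and the call was lost without B6 female 1, 3 or 4, or B6 male 1, 2, 3 or 5 (adjusted p of at most 0.0023 in edgeR). In C3 it was 0.89 ± 0.22 (edgeR adjusted p = 0.0048).

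No other member was called between the sexes by edgeR. Besides the members that edgeR called, DESeq2 called Zbp1, Ifit2, Ifit3, Usp18 and Psmb8 higher in B6 females (15 in all, beside 4.36% of genes) and Zbp1, Ifit1, Ifi44 and Xaf1 higher in C3 females (7 in all, beside 5.64%). By limma these were Irf7, Ddx58, Ifit2, Ifit3 and Usp18 in B6 (15 in all, beside 4.17%) and Zbp1 and Ifit1 in C3 (5 in all, beside 4.83%). The RNA-editing deaminase gene Adar had a log2 difference of 0.33 in B6 and 0.13 in C3, and the DNA exonuclease gene Trex1 had 0.15 and 0.14. In annotated coding transcripts, 82.6% of the 125-base windows of Trex1 also occur in Atrip. Whether these are copies or the same place in the genome was not examined, so how far this affects the level of Trex1 is not known. For antigen processing, the immunoproteasome subunit genes Psmb8 and Psmb9 had 0.60 and 0.45 in B6 and 0.53 and 0.33 in C3, and the peptide transporter gene Tap1 had 0.15 and 0.20. Ifi27, Ifi35 and Lgals3bp had 0.25, 0.082 and 0.15 in B6 and -0.19, -0.07 and 0.10 in C3. The annotated locus of Ifi27 lies within Ifi27l2a on the opposite strand, and the library kit keeps strand.

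C3 and B6 livers were then compared within each sex to ask which members differed by strain. In females, 1 member, Mx2, was called higher in C3 (beside 4.63% of genes tested) and 4 were called lower, Oasl2, Bst2, Samd9l and Parp9 (beside 4.77%, with 9.4% in either direction). In males, 2 were called higher in C3, Stat2 and Mx2 (beside 4.09%), and 6 were called lower, Oasl1, Rsad2, Bst2, Samd9l, Parp9 and Dtx3l (beside 5.55%, with 9.64% in either direction). Mx2, Bst2, Samd9l and Parp9 were called in the same direction in both sexes. The median log2 difference of the members was -0.26 in females and -0.14 in males, beside 0.019 and 0.015 over the genes tested, and 33 and 26 members lay below 0 (beside 46.6% and 47.6% of genes). At an adjusted p under 0.05 in edgeR, 15 members were lower and 1 higher in C3 females (beside 15.3% and 17.7% of genes), and 10 were lower and 3 higher in C3 males (beside 17.5% and 17.0%). The 5 C3 livers all lay above the 5 B6 livers for Mx2 in females (beside 6.34% of genes) and in males (6.74%), and all below for Oas3, Ifit2 and Parp9 in females (6.47%) and for Oasl1, Mx1, Rsad2, Parp9 and Dtx3l in males (8.4%). The markers of Kupffer cells were below 0 in C3 for 11 of 11 genes in both sexes, with medians of -0.79 in females and -0.53 in males, and 7 and 4 were called lower. Those of endothelial and stellate cells were below 0 for 9 of 10 in females and 7 of 10 in males, with medians of -0.29 and -0.22. The summed levels of both lists stand above. Lymphocyte markers were below 0 for 6 of 9 genes in females and 8 of 9 in males, with medians of -0.61 and -1.42, and 2 and 7 were lower at an adjusted p under 0.05 in edgeR. Markers of plasmacytoid dendritic cells were below 0 for 1 of 4 genes in females and 4 of 4 in males, with medians of 0.48 and -1.60. Those of hepatocytes were above 0 for 5 of 8 in females and 7 of 8 in males, with medians of 0.24 and 0.21. The part of these cells in the strain differences of the members was not tested. Without the pool term 2 members were called in females, Mx2 and Parp9, and 3 in males, Oasl1, Mx2 and Parp9.

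**Figure D4:**
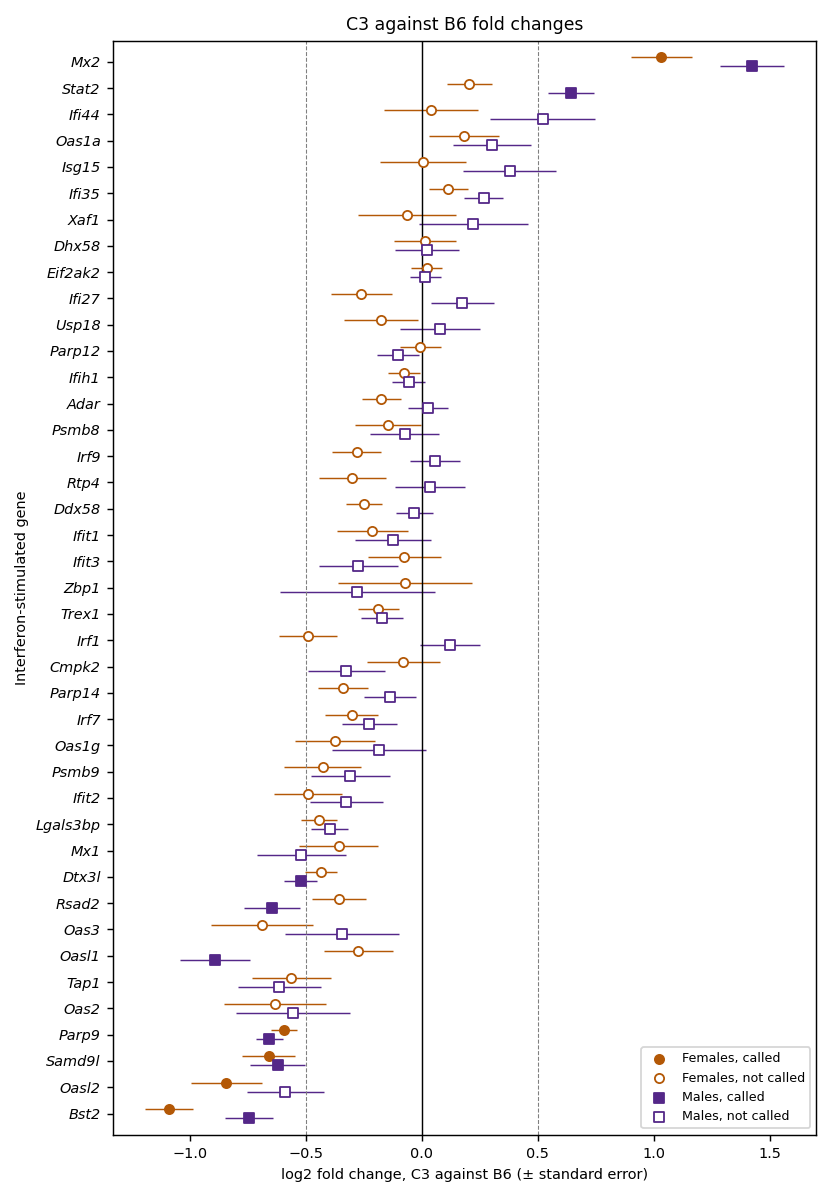
Log2 fold change of C3 against B6 with its standard error for each member in females (circles) and males (squares); filled symbols are calls and dashed lines mark 0.5 in either direction. Mx2 is called higher in C3 in both sexes, and Bst2, Samd9l and Parp9 are called lower in both.

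Mx2 codes for a dynamin-like GTPase, and in most inbred laboratory strains neither Mx1 nor Mx2 gives a functional protein. Mx2 (chr16:97757688-97782508) was at 7.28, 6.59, 4.38, 5.67 and 5.15 CPM in B6 females and 9.82, 14.1, 14.3, 10.9 and 10.4 CPM in C3 females. In males it was at 3.08, 5.32, 5.78, 6.19 and 4.11 CPM in B6 and 13.7, 13.9, 8.45, 14.8 and 9.14 CPM in C3. Every C3 liver lay above every B6 liver of either sex. Mx2 was 2.05-fold higher (log2 fold change 1.03 ± 0.13 SE, edgeR adjusted p = 6.7e-06) in C3 females and 2.69-fold higher (log2 fold change 1.43 ± 0.14 SE, edgeR adjusted p = 1.9e-07) in males, with log2 differences within pools of 0.97, 1.15 and 1.03 in females and 1.20, 1.84 and 1.30 in males, and both calls held in all 20 fits that left out a liver. Mx1, which lies head to head with Mx2 on chromosome 16 with its start 73174 bases away, had log2 differences of -0.36 in females and -0.52 in males, and the 2 genes share under 1% of their 125-base windows (0.438% of those of Mx1 and 0.698% of those of Mx2).

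Stat2 (chr10:127707632-127729905), the component of ISGF3 that carries the activating domain, was at 52.2, 59.6, 50.6, 76.4 and 91.2 CPM in B6 females and 55.5, 85.3, 59.2, 49.4 and 74.3 CPM in B6 males. Among C3 livers it was at 77.4, 74.8, 58.6, 85.2 and 77.7 CPM in females and 99.4, 123, 106, 84.0 and 95.8 CPM in males. Of the 5 C3 males, 4 lay above every other liver, and male 4, their lowest, lay under the highest B6 male. Stat2 was 1.56-fold higher (log2 fold change 0.64 ± 0.10 SE, edgeR adjusted p = 5.4e-05) in C3 males than in B6 males, with 0.52, 0.81 and 0.64 within pools, and the call held in all 20 fits that left out a liver. The call was lost without the pool term. In females the strain difference was 0.21 ± 0.10 (edgeR adjusted p = 0.12). Between C3 females and males the log2 difference was -0.42 ± 0.10 (edgeR adjusted p = 0.0033), which missed both thresholds. Irf9, whose product joins it in ISGF3, had a strain difference of -0.28 in females and 0.058 in males, without a call.

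Bst2 (chr8:74058161-74061336) was at 86.4, 91.0, 48.3, 40.9 and 49.5 CPM in B6 females and 25.3, 43.4, 48.2, 21.2 and 15.6 CPM in C3 females. B6 males had 43.9, 30.6, 86.0, 80.3 and 40.0 CPM and C3 males 26.4, 19.8, 19.2, 58.7 and 24.3 CPM. Livers of pool 3 held the highest values in all 4 groups, so that the strains overlapped, and C3 male 4 was the only pool 3 liver among the C3 males. Within pools, the log2 differences of C3 against B6 were -1.31, -0.93 and -0.95 in females and -0.84, -0.79 and -0.50 in males, all below 0. With pool in the model, Bst2 was 2.13-fold lower (log2 fold change -1.09 ± 0.10 SE, edgeR adjusted p = 1.1e-07) in C3 females and 1.68-fold lower (log2 fold change -0.74 ± 0.10 SE, edgeR adjusted p = 1.6e-05) in C3 males, and both calls held in all 20 fits that left out a liver. Without the pool term neither difference was called, at log2 fold changes of -1.04 in females and -0.92 in males.

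Parp9 and Dtx3l, which act as a complex in DNA repair and antiviral defence, lie head to head on chromosome 16, on opposite strands with an overlap of 558 bases at their starts. Parp9 (chr16:35938556-35972707) was at 76.8, 70.2, 70.6, 82.3 and 82.7 CPM in B6 females and 54.3, 46.5, 47.6, 55.8 and 49.5 CPM in C3 females. In males it was at 74.9, 80.0, 76.8, 80.7 and 73.2 CPM in B6 and 48.6, 51.9, 48.1, 48.9 and 48.1 CPM in C3. All 10 C3 livers lay below all 10 B6 livers, with little spread within a group. Parp9 was 1.51-fold lower (log2 fold change -0.59 ± 0.056 SE, edgeR adjusted p = 1.4e-07) in C3 females and 1.58-fold lower (log2 fold change -0.66 ± 0.057 SE, edgeR adjusted p = 4.6e-08) in C3 males, with log2 differences within pools of -0.65, -0.38 and -0.64 in females and -0.61, -0.63 and -0.69 in males, and both calls held in all 20 fits that left out a liver.

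Dtx3l (chr16:35926601-35939113) was at 85.8, 88.7, 90.7, 108 and 118 CPM in B6 females and 87.5, 60.2, 65.3, 79.1 and 70.4 CPM in C3 females. B6 males had 97.5, 115, 94.3, 91.4 and 126 CPM and C3 males 74.8, 82.0, 78.9, 66.9 and 71.0 CPM. Males did not overlap, whereas C3 female 1 lay above B6 female 1. Dtx3l was 1.44-fold lower (log2 fold change -0.52 ± 0.072 SE, edgeR adjusted p = 1.5e-05) in C3 males, with -0.58, -0.42 and -0.47 within pools. The call was lost to the fold threshold alone without B6 male 5, at a log2 difference of -0.49, and without C3 female 1, at -0.50, just short of the threshold. In females the difference was -0.43 ± 0.07, past the p threshold (edgeR adjusted p = 9.4e-05) and short of the fold threshold.

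Samd9l, whose values stand above, was 1.58-fold lower (log2 fold change -0.66 ± 0.12 SE, edgeR adjusted p = 0.00021) in C3 females and 1.54-fold lower (log2 fold change -0.62 ± 0.12 SE, edgeR adjusted p = 0.00051) in C3 males, with log2 differences within pools of -0.58, -0.72 and -0.72 in females and -0.40, -0.76 and -0.69 in males. The female call held in all 20 fits that left out a liver. The male call was lost without B6 male 1, 2 or 4, or C3 male 1, 3, 4 or 5 (adjusted p of at most 0.0034 in edgeR). The strains overlapped in both sexes, through C3 female 4 among females and C3 male 2 among males. Oasl2 was 1.79-fold lower (log2 fold change -0.84 ± 0.15 SE, edgeR adjusted p = 0.0003) in C3 females, with -0.69, -0.92 and -1.04 within pools, and the call was lost without B6 female 1 or 3, or C3 female 1 or 5 (adjusted p of at most 0.0014 in edgeR). In males its strain difference was -0.59 ± 0.17.

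Oasl1 (chr5:115373249-115387920), which represses translation of Irf7, was at 19.3, 17.8, 13.2, 15.7 and 14.8 CPM in B6 males and 9.86, 10.2, 6.98, 8.48 and 9.03 CPM in C3 males, with no overlap. Among females it was at 12.2, 7.66, 10.4, 16.8 and 11.6 CPM in B6 and 9.95, 9.73, 9.94, 8.92 and 9.58 CPM in C3. Oasl1 was 1.85-fold lower (log2 fold change -0.89 ± 0.15 SE, edgeR adjusted p = 0.00015) in C3 males, with -0.93, -1.03 and -0.76 within pools, and the call was lost without B6 male 1 (edgeR adjusted p = 0.0014). Between the sexes in B6, which overlapped, the log2 difference of females against males was -0.46 ± 0.15 (edgeR adjusted p = 0.021). Oasl1 lies 10994 bases from Oasl2, which was called higher in B6 females, whereas Oasl1 was not called between the sexes.

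Rsad2 (chr12:27127608-27141317), which codes for viperin, an enzyme that makes a chain-terminating nucleotide, was at 15.6, 17.9, 13.8, 16.5 and 17.0 CPM in B6 males and 13.1, 11.7, 9.95, 8.88 and 10.5 CPM in C3 males. No C3 male reached the lowest B6 male. In females it was at 15.1, 13.2, 19.0, 21.0 and 17.8 CPM in B6 and 12.3, 8.67, 12.9, 16.5 and 17.2 CPM in C3, which overlapped. Rsad2 was 1.56-fold lower (log2 fold change -0.64 ± 0.12 SE, edgeR adjusted p = 0.00039) in C3 males, with -0.69, -0.41 and -0.76 within pools, and the call was lost without B6 male 4, or C3 male 2, 3, 4 or 5 (adjusted p of at most 0.0018 in edgeR). Its neighbour Cmpk2, head to head at 12762 bases, had a log2 difference of -0.079 in females and -0.32 in males.

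**Figure D5:**
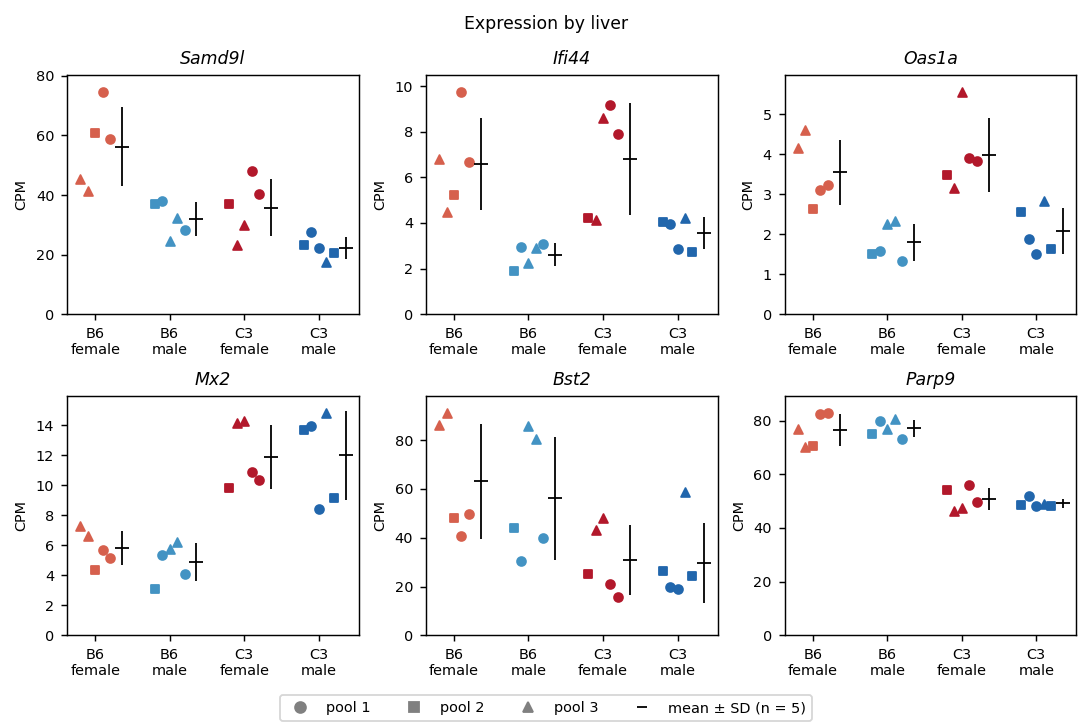
Level in CPM of 6 members in each liver, by group, with marker shape for the sequencing pool and bars for the mean ± SD of 5 mice; the axes start at 0. The means of Samd9l, Ifi44 and Oas1a are higher in females of each strain (called for Samd9l and Oas1a in both and for Ifi44 in B6), Mx2 is higher and Parp9 lower in every C3 liver, and Bst2 shows the pool 3 livers (triangles) above the others in each group.

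The other members were not called between strains by edgeR or DESeq2, and limma called 1 of them, Lgals3bp, lower in C3 females (log2 difference -0.51, limma adjusted p = 3.6e-05, beside 4.89% of genes called lower by limma). In edgeR Lgals3bp passed the p threshold alone, at log2 differences of -0.44 ± 0.078 in females and -0.40 ± 0.079 in males (edgeR adjusted p = 0.00022 and 0.00072). In females and males in turn, log2 differences of C3 against B6 were 0.18 and 0.30 for Oas1a, -0.37 and -0.18 for Oas1g, -0.63 and -0.55 for Oas2, and -0.69 and -0.34 for Oas3. Those of the Ifit genes ran from -0.49 to -0.074 among females and from -0.32 to -0.12 among males, and those of the sensors Ifih1, Ddx58, Dhx58, Zbp1 and Eif2ak2 from -0.25 to 0.021 and from -0.28 to 0.024. Of the transcription factors, Irf1 had -0.49 ± 0.13 and 0.12 ± 0.13, and Irf7 -0.30 and -0.23. The effectors Ifi44 and Rtp4 had 0.04 and -0.30 in females and 0.52 and 0.036 in males. Isg15 and Usp18 had 0.0054 and -0.18 in females and 0.38 and 0.08 in males. Antigen processing genes were below 0 in both sexes, at -0.56, -0.14 and -0.43 in females and -0.61, -0.074 and -0.31 in males for Tap1, Psmb8 and Psmb9. Parp12 and Parp14 had -0.0054 and -0.34 in females and -0.10 and -0.14 in males. The remaining members, Adar, Trex1, Xaf1, Ifi27 and Ifi35, ran from -0.26 to 0.11 among females and from -0.17 to 0.27 among males.

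Whether the sex difference itself depended on strain was tested as an interaction. By edgeR 0 members were called, beside 0.401% of genes tested, and 6 had an unadjusted p under 0.05. At an adjusted p under 0.05 there were 0 members, beside 1.98% of genes with a positive difference and 0.978% with a negative one. DESeq2 called 0 members, and gave 2 an adjusted p under 0.05 and 7 an unadjusted p under 0.05. By limma 0 were called, with 5 at an unadjusted p under 0.05. Shares of all genes at an unadjusted p under 0.05, and by DESeq2 at an adjusted p under 0.05, are not given here. Those counts therefore do not compare the members with other genes. The smallest adjusted p was that of Irf1, 0.077 in edgeR and 0.024 in DESeq2, with a difference of the log2 fold changes, C3 minus B6, of -0.61 ± 0.18 (SE). Stat2 followed with -0.44 ± 0.14 (edgeR adjusted p = 0.1) and Oasl1 with 0.62 ± 0.21 (edgeR adjusted p = 0.13). A sex difference called in B6 and not in C3 is therefore not shown to differ between the strains by edgeR or limma for any member. By DESeq2, Irf1, called in B6 alone, passed an adjusted p of 0.05 and not the threshold of 0.001 for a call.

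Other parts of the pathway were examined through lists of related genes. Of 21 interferon genes, 0 passed the filter on low counts and 17 had no count in any liver. The others held at most 5 counts in a library (Ifng), so that differences in interferon transcripts were not detectable at this depth. Of 9 receptor and kinase genes, 8 were tested and 0 were called in any comparison by edgeR or DESeq2, while limma called 1, Il10rb, a chain shared by the receptors of interferon lambda and interleukin 10, higher in C3 females. At an adjusted p under 0.05 in edgeR, 4 were higher in B6 females (50.0%, beside 16.2% of genes) and 3 in C3 females (37.5%, beside 20.1%). By the same measure, 1 was higher in C3 than in B6 among females (12.5%, beside 17.7%) and 2 among males (25.0%, beside 17.0%). In each of these comparisons 0 were lower. Ifnar1, a chain of the type I receptor, was at 66.2 ± 6.02 CPM for B6 females, 62.3 ± 7.55 CPM for B6 males, 65.5 ± 2.06 CPM for C3 females and 69.9 ± 3.80 CPM for C3 males.

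Among 11 brakes on the pathway, Trim24, a corepressor that restrains interferon signalling in liver, was 4.93-fold higher (log2 fold change 2.30 ± 0.21 SE, edgeR adjusted p = 1.3e-07) in B6 females and 4.68-fold higher (log2 fold change 2.23 ± 0.21 SE, edgeR adjusted p = 2.3e-07) in C3 females. Setdb2, a histone methyltransferase, was 1.42-fold lower (log2 fold change -0.50 ± 0.10 SE, edgeR adjusted p = 0.00095) in C3 females than in C3 males. Between strains 0 brakes were called by edgeR. At an adjusted p under 0.05, 2 were higher and 1 lower in C3 females (18.2% and 9.09%, beside 17.7% and 15.3% of genes). In C3 males 5 were higher and 1 lower (45.5% and 9.09%, beside 17.0% and 17.5%). Of 18 upstream sensors and adaptors, Ifi204, a DNA sensor of the mouse HIN-200 family, was 1.63-fold higher (log2 fold change 0.70 ± 0.14 SE, edgeR adjusted p = 0.00081) in B6 females, and it was 5.95-fold lower (log2 fold change -2.57 ± 0.15 SE, edgeR adjusted p = 2.5e-10) in C3 females and 5.09-fold lower (log2 fold change -2.35 ± 0.16 SE, edgeR adjusted p = 1.5e-09) in C3 males than in B6. Its means were 20.6 ± 7.89 CPM for B6 females, 12.4 ± 3.70 for B6 males, 3.33 ± 0.846 for C3 females and 2.56 ± 0.768 for C3 males.

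A further list of 51 interferon-induced genes, of which 47 were tested, gave 9 calls in B6 females (19.1%, beside 3.23% of all genes tested) and 8 in C3 females (17.0%, beside 4.11%), all of them higher than in males, with median log2 differences of 0.50 and 0.46. Between strains, 2 were called higher (4.26%, beside 4.63%) and 5 lower (10.6%, beside 4.77%) in C3 females, and 3 higher (6.38%, beside 4.09%) and 6 lower (12.8%, beside 5.55%) in C3 males. Of those called in any comparison, the 6 with the smallest p were Slfn8, Tdrd7, Pyhin1, Ifi44l, Tapbp and Uba7. Slfn8, a Schlafen family gene, was 4.82-fold lower (log2 fold change -2.27 ± 0.13 SE, edgeR adjusted p = 1.6e-10) in C3 females and 3.42-fold lower (log2 fold change -1.77 ± 0.14 SE, edgeR adjusted p = 1.3e-08) in C3 males. Pyhin1 was 3.89-fold lower and 4.73-fold lower in C3, and Tdrd7 1.48-fold lower and 1.63-fold lower, in females and males in turn. Ifi44l, a paralog of Ifi44, had no count in any B6 liver and means of 1.75 ± 0.979 CPM for C3 females and 0.983 ± 0.635 CPM for C3 males, so that the C3 level was at least 17.3-fold higher among females and, among males, at least 10.2-fold higher against a floor of 3 counts per library. Uba7, the enzyme that activates Isg15 for conjugation, was 2.02-fold higher (log2 fold change 1.02 ± 0.13 SE, edgeR adjusted p = 9.8e-06) in B6 females and 1.62-fold higher (log2 fold change 0.70 ± 0.13 SE, edgeR adjusted p = 0.00058) in C3 females, and Tapbp was 1.55-fold higher (log2 fold change 0.63 ± 0.075 SE, edgeR adjusted p = 4.3e-06) in B6 females.

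The tissue label was checked through markers of cell types. Markers of hepatocytes summed to 111500 to 143900 CPM for B6 females, 96130 to 120500 CPM for B6 males, 154500 to 186700 CPM for C3 females and 129900 to 156400 CPM for C3 males. Of the 8 markers, 6 were below 0 in females of each strain, with median log2 differences of -0.18 in B6 and -0.24 in C3. At an adjusted p under 0.05 in edgeR, 3 were lower in B6 females (37.5%, beside 18.4% of genes) and 4 in C3 females (50.0%, beside 19.9%). The 2 above 0 were Alb, at 0.42 in B6 and 0.46 in C3 (edgeR adjusted p = 0.0017 and 0.00096), and Fgb, at 0.11 and 0.096. Lymphocyte markers, of which 9 of 12 were tested, summed to at most 8.61 CPM in any liver, and 8 of the 9 were above 0 in females of each strain, with median log2 differences of 0.50 in B6 and 1.51 in C3. The other marker, Cd4, was 3.99-fold lower in B6 females and 5.92-fold lower in C3 females (edgeR adjusted p = 2.5e-07 and 1.2e-08), with means of 0.845 ± 0.336 CPM for B6 females, 3.32 ± 1.10 CPM for B6 males, 0.814 ± 0.178 CPM for C3 females and 5.18 ± 1.44 CPM for C3 males. Markers of plasmacytoid dendritic cells, known as strong producers of type I interferon, were tested for 4 of 5 genes. They summed to 1.07 to 2.06 CPM for B6 females, 1.01 to 2.41 CPM for B6 males, 1.41 to 3.54 CPM for C3 females and 0.387 to 1.18 CPM for C3 males. Of these 4, 2 were above 0 in B6 females and 4 in C3 females, with medians of 0.13 and 1.84. The defining marker Siglech was at 0.237 ± 0.0970 CPM for B6 females, 0.347 ± 0.173 CPM for B6 males, 0.461 ± 0.175 CPM for C3 females and 0.206 ± 0.140 CPM for C3 males. Neutrophil markers, of which 3 of 7 were tested, summed to at most 5.80 CPM in any liver, and 2 of the 3 were above 0 in B6 females and 3 in C3 females, with medians of 0.49 and 1.84. Erythroid markers, of which 2 of 6 were tested, summed to 20.2 to 33.0 CPM for B6 females, 145.8 to 187 CPM for B6 males, 16.1 to 28.6 CPM for C3 females and 196 to 226 CPM for C3 males, with Hbb-b1, Hba-a1 and Hba-a2 at 0 in every group. Only 1 of the 2 was called, Alas2, at 6.78-fold lower in B6 females and 9.72-fold lower in C3 females (edgeR adjusted p = 3.7e-11 and 5.6e-12). Slc4a1 had log2 differences of -0.44 and -0.23 (edgeR adjusted p = 0.39 and 0.73). Read pairs with more than one match were not counted, and the part of this in the globin counts was not tested. The part of these cells in the results was not tested.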

How the data were processed

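Total RNA of 20 mouse livers was measured by stranded, ribosomal RNA-depleted sequencing of paired 125-base reads. Per the study's methods and the submitters' processing notes, the authors trimmed reads with Cutadapt 1.9.1, aligned them to mm9 with STAR 2.5.1b and made the deposited counts of read pairs per RefSeq gene with featureCounts (Subread 1.5.0-p1), using strand and setting aside pairs with more than one genomic match or gene. Reads of both strains were aligned to the same reference, and the part of this in the strain differences was not tested. The promoter windows were read from this reference alone, so that differences in their letters between the strains were not examined. The authors also deposited TPM, that is, counts divided by a gene length and scaled within each library, with the length definition not given in the sources used here. In both tables the headers of gene identifiers and symbols were exchanged, and the columns were read by content.

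From the counts, edgeR 4.0.16 in R 4.3.3 was run with TMM normalization, its default filter on low counts, and a quasi-likelihood model of group and sequencing pool over all 20 libraries. P-values were adjusted by Benjamini and Hochberg over 13704 tested genes, with calls made at an adjusted p under 0.001 and an absolute log2 fold change over 0.5. A standard error is the absolute log2 fold change divided by the square root of the F statistic. CPM are on TMM-scaled library sizes, and SD is over 5 mice. The fit was tested on simulated data. Alternatives were DESeq2 1.42.0, limma 3.58.1 on log2(TPM + 1) and log2(TPM + 0.1), the edgeR test glmTreat against a fold threshold, other normalizations, filters, thresholds and models, and leaving out each liver in turn. Libraries held 27370921 to 46835745 counts (median 35282417), and the floor of 3 counts covers counting error only.

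All 41 members are accounted for. Values in every liver are given for members called in any comparison and for Stat2, Irf9, Irf7 and Isg15, and up to 6 called genes of each related list are named by smallest p. The members and lists were chosen with earlier results of these data known. No list was given a set test. A gene of the receptor and kinase list is not reported here and was left out of its counts.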

Additional observations from a re-analysis of the deposited data

Results flagged for a closer look

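Each group of 5 livers was examined for a highest or lowest liver whose gap to the nearest other exceeded the 95% critical value of Dixon's test, for each of the 41 members. Of the 164 groups, 6 were picked out in this way, and chance alone picks out about 1 in 20. Among C3 males, replicate 4 was high for Bst2 at 58.7 CPM (the others lay at 19.2 to 26.4 CPM) and for Ifi27 at 72.5 CPM (29.9 to 39.3 CPM), and it is the only liver of its group from pool 3. Replicate 1 of the same group was high for Zbp1 at 4.45 CPM (2.07 to 2.49 CPM), replicate 3 was low for Cmpk2 at 3.96 CPM (6.00 to 6.81 CPM), and replicate 2 was high for Parp9 at 51.9 CPM (48.1 to 48.9 CPM). Among C3 females, replicate 3 was high for Isg15 at 5.24 CPM (2.41 to 3.21 CPM). No explanation was tested for these values beyond the pool of each liver.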

How the results depend on the processing

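The members called were counted again under each alternative, and the direction of the named fold changes was reversed in 0 of 312 repeats with another setting (256 still called) and in 0 of 520 with a liver left out (439 still called). Of 10 members called between the sexes in B6, there were 18 at an adjusted p under 0.05 with the same fold threshold (as for the 14 and 8 that follow), 0 by glmTreat against 0.5, 1 without the pool term and 6 with only the 2 groups compared. In C3, with 3 called, there were 14 at an adjusted p under 0.05, 7 by DESeq2, 5 by limma with either pseudocount, 5 with upper-quartile normalization, 0 by glmTreat, 1 without the pool term and 1 with only the 2 groups compared. Of 5 called between strains in females, there were 8 at an adjusted p under 0.05, 1 by glmTreat and 2 without the pool term, and of 8 in males there were 1 by glmTreat and 3 without the pool term. The other alternatives gave counts within 1.5 times of these, and 0 members were called in the interaction under every one run. With each liver left out in turn, the counts ranged from 3 to 12 for the sexes in B6, from 1 to 6 in C3, from 4 to 6 for the strains in females and from 6 to 8 in males. The B6 count fell to 3 without B6 female 1 or male 5, to 4 without male 1 or 3, and to 6 without female 4 or 5 or male 2. The C3 count fell to 1 without C3 female 3, 4 or 5 or male 2, 3 or 4, and was 6 without C3 female 2 or male 1 and 5 without B6 male 4. The replicate numbers did not pair the livers, since the deviations of same-numbered livers correlated between -0.46 and 0.63 (-0.20 and 0.32 with pool removed). With the replicate block the counts were 10, 4, 4, 8 and 0 in the order of the 5 comparisons. The cause of these changes was not tested. Shares of all genes called stand above for DESeq2 and limma on log2(TPM + 1) between the sexes, and are not given for the other settings. A looser setting can call more of all genes too, so these counts do not compare the members with other genes. The interferon genes held at most 5 counts in a library, with read pairs of more than one match set aside, and differences in them were not detectable.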
